A study of Mus musculus with 6 samples.

Results

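Complement is a set of plasma and cell-surface proteins, and 31 of its genes were examined here in prostates of intact and castrated mice that carry a gene deletion in prostate epithelium. They were taken by symbol from a list of 32 complement components, regulators and receptors, and are 31 of the 24421 gene symbols in the deposited tables. The symbol C1s was not among the table's rows, and RefSeq gives it as a synonym of C1s1, whose values are given beside the 31 and were chosen for that after they were seen. All 6 samples were labelled as prostate and carried PB-Cre4 with 1 gene flanked by loxP sites on both alleles, and differed in castration status: 2 were from intact mice and 4 from castrated mice (Cx in the labels). In this genotype a Cre recombinase under a probasin promoter, which is active in prostate epithelium and responds to androgen, deletes the sequence between the loxP sites. Both groups carry this genotype, and no sample without it was analysed here, so the level of the deleted gene could check no label. Mouse strain, age and the time since castration are not given in the sources used here. Beside a replicate number, each sample's description holds a further number that no other sample shares, but no label says that it stands for a different animal, and p-values therefore reflect how these 6 samples vary, which may be technical.

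Complement can be started by the classical pathway, in which C1q and its proteases C1r and C1s act on C4 and C2, by the lectin pathway, in which mannose-binding lectins work with the Masp proteases, or by the alternative pathway through factor B. All routes cleave C3. Cleaved C5 then assembles with C6, C7, C8 and C9 into the membrane attack complex, and the released fragments C3a and C5a signal to leukocytes. The liver makes most of the circulating proteins, while macrophages, fibroblasts and epithelia make some components locally. Membrane regulators such as CD55, CD46 and CD59 protect host cells.

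The samples held 43679297 to 59170793 reads counted in genes. Values are reads of a gene per 1000000 counted reads (CPM), divided by a size factor for each sample, called rescaled CPM, and differences are castrated minus intact samples on the log2(rescaled CPM + 0.5) scale, which understates changes of weakly expressed genes. Castrated sample 4 stood apart from the other castrated samples, and results that rest on it are given with and without it. It was picked out by its values in these data, so p-values without it follow a choice made from those values. Of the 31 genes, 25 passed the filter of at least 1 CPM in at least 2 samples and were tested in limma together with all other genes, 13898 in all. At a Benjamini-Hochberg adjusted p under 0.05, 1 of the 25 was lower in castrated samples, where 1.27% of all tested genes were, and 0 were higher, where 0.698% of all were. At an unadjusted p under 0.05, 2 were lower and 3 higher, beside 8.06% and 7.84% of all tested genes. The median log2 difference was -0.26 over the 25, of which 17 were below 0 and 8 above, and 0.00 over all tested genes.

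The clusterin gene Clu had the highest level of these genes per kilobase of exon in each sample, and C1qb, C1qa, C3 and C1qc held the next 4 places in all samples but intact sample 1, where Cfb lay above C1qc. Per kilobase, Clu was at 1775 rescaled CPM on average in intact and 2682 in castrated samples, C1qb at 179 and 151, C1qa at 162 and 145, and C3 at 139 and 91.1. C1qb lay above C1qa in 5 samples and below it in castrated sample 2. C3 exceeded both in castrated sample 4 and lay below both in each other sample. The lectin and terminal pathway genes were near the low end. Of these 11 genes, C7 (13.6) and C8g (1.25) averaged above 1 rescaled CPM per kilobase in intact samples, and none did in castrated samples.

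**Figure D1:**
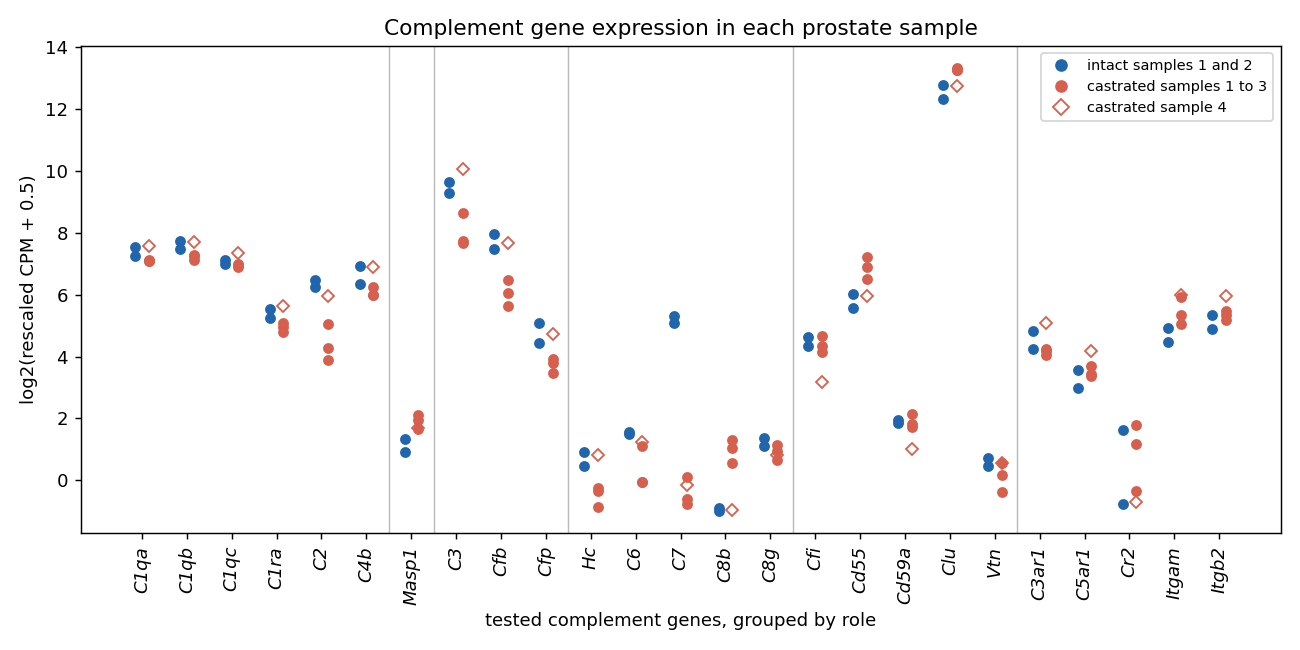
Level of each of the 25 tested complement genes in each sample, as log2(rescaled CPM + 0.5), with vertical lines between roles (from the left: classical, lectin, C3 and alternative, terminal, regulators, receptors). C7 is at 33.7 rescaled CPM or more in the intact samples and at 0.580 or less in the castrated samples.

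C7 was the complement gene that changed past the threshold. Its product is the terminal component through which the forming membrane attack complex inserts into membranes. C7 (chromosome 15, 4988762 to 5063740) was at 38.9 and 33.7 rescaled CPM (intact samples 1 and 2), against 0.152, 0.0898, 0.580 and 0.404 (castrated samples 1 to 4). The groups lay far apart, with 3586 reads over both intact samples and 71 over all castrated samples, the latter spread as 8, 5, 33 and 25. C7 fell 46.9-fold on the log2(rescaled CPM + 0.5) scale, from 36.3 ± 3.66 (SD, n = 2) to 0.306 ± 0.227 (SD, n = 4) (limma adjusted p = 0.0013, log2 difference -5.55, 95% interval -6.28 to -4.82). Fitted to reads, the log2 difference was -6.87 in edgeR (adjusted p = 0.00989). Of the 25 genes, edgeR with all samples called C7 lower and none higher, beside 1.07% and 0.389% of all tested genes. DESeq2 called C7 lower and C8b and Itgam higher, beside 4.54% and 4.76%. Array weights weight each sample by how well it follows the fit. With them, C7 was lower and none of the 25 higher, beside 3.84% and 3.02%. With the replicate number as a block, C7 and C2 were lower and none higher, beside 1.73% and 1.27%. Replicate numbers 3 and 4 occur in the castrated group alone, so the block fit compares only samples 1 and 2 of each group. C7 passed the filter through the intact samples alone, and a gene that passes that way had to differ between the groups. In bulk tissue, fewer cells that express a gene and less RNA per cell cannot be told apart.

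The terminal genes C6, C7 and C9 lie on chromosome 15, C6 and C7 close together. C6 (chromosome 15, 4727175 to 4814967), whose product binds C5b before C7 joins, was at 2.32 and 2.45 rescaled CPM (intact samples 1 and 2), against 0.456, 0.467, 1.64 and 1.87 (castrated samples 1 to 4) (log2 difference -0.97, 95% interval -2.08 to 0.14, limma adjusted p = 0.377). The intact samples lay above all castrated samples, with castrated samples 1 and 2 lowest, but the difference did not pass the test. C9, which forms the pore, had 2 reads in all intact and 1 in all castrated samples, too few to compare. Of the protein-coding genes of the tables that flank C7 in RefSeq, Mroh2b, between C6 and C7, was at 1.80 and 0.700 rescaled CPM in the intact samples and had 0 reads in the castrated samples. Card6, on the other side, was at 26.9 and 27.0 (intact), against 25.4, 27.4, 27.6 and 29.5 (castrated) (limma adjusted p = 0.951). At Card6, both groups thus lay within 25.4 to 29.5.

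**Figure D2:**
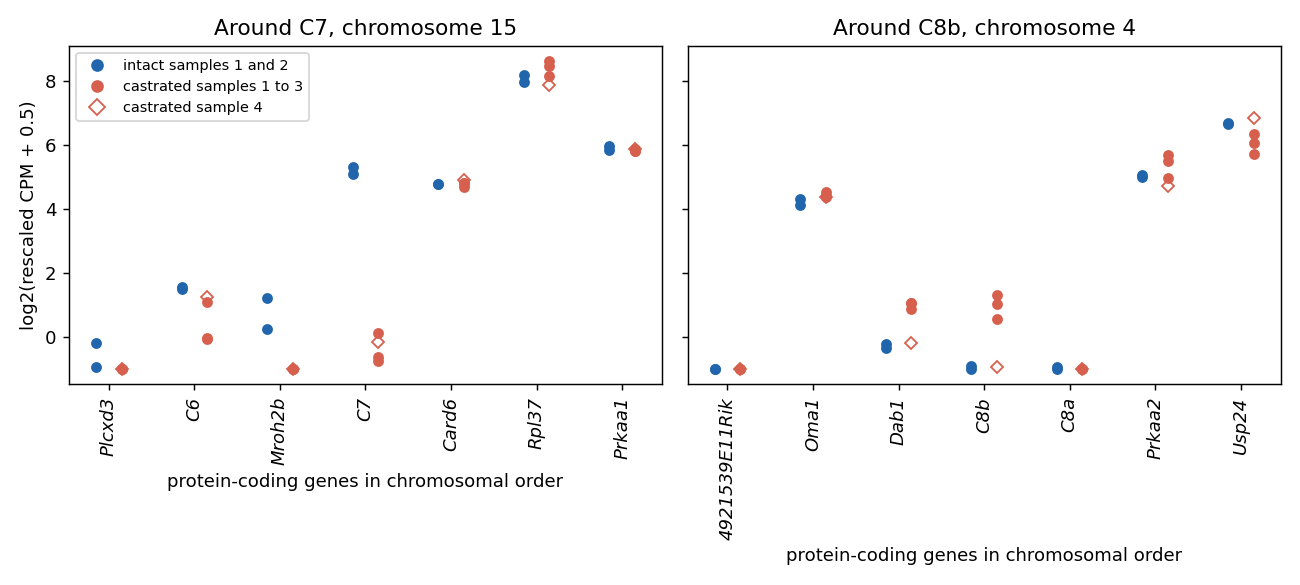
Level, as log2(rescaled CPM + 0.5), of the 3 nearest protein-coding genes on either side of C7 (left) and C8b (right) in the order of RefSeq start positions, with 1 point per sample. C7 is lower in the castrated than in the intact samples, Mroh2b and Plcxd3 have 0 reads in the castrated samples, and Dab1 and C8b are higher in castrated samples 1 to 3 than in the intact samples and castrated sample 4.

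The sequences before the start sites of C7 and of C6 are shown because these terminal pathway genes lie close together on chromosome 15 and differ in the size of their group difference. They are from the RefSeq promoter table (GRCm38.p6), on each gene's own strand, 5′ to 3′, and end just before the start site. For C7 these are the 250 bases of chr15:5063774-5064023, minus strand. For C6 they are chr15:4726960-4727174, plus strand, which leaves out 35 bases at the 3′ end that lie in an exon of the GENCODE annotation. Capitals would mark a match to an androgen response half-site (AGAACA on either strand), to the full element (AGAACA, 3 bases of any kind, TGTTCT), which holds a half-site on each strand, or to an NF-kappaB site (GGGA, any base, TTTCC, on either strand).
C7: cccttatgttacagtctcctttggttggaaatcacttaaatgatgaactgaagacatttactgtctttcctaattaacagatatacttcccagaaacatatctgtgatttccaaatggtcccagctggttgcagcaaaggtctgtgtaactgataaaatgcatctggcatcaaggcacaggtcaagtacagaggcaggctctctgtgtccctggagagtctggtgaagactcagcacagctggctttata
C6: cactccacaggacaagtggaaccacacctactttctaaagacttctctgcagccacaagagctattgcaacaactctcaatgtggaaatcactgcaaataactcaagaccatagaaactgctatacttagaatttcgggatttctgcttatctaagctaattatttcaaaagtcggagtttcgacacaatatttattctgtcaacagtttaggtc
Neither sequence holds a match, so both are in lower case. Of all 32851 RefSeq promoter windows of 250 bases, 16.1% hold a half-site, 0.356% the NF-kappaB letters and 0.00913% the full element. Promoter windows matched 23 of the 31 genes (24 windows), and 6 of these windows hold a half-site. The lack of a match says only that these letters are not in these windows.

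C8b, a chain of C8, showed a pattern opposite to C7 in part of the castrated group. C8b (chromosome 4, 104766317 to 104804548) was at 0 and 0.0350 rescaled CPM (intact samples 1 and 2), against 1.56, 0.969, 1.97 and 0.0161 (castrated samples 1 to 4). Castrated samples 1 to 3 were high, while castrated sample 4 was as low as the intact samples, with 1 read there, 0 and 2 reads in the intact samples and 82, 54 and 112 in the others. The ratio of castrated to intact reads, scaled for depth, was 56.7, with an exact 95% binomial interval of 15.5 to 470.5 for counting error. The difference did not pass in limma (log2 difference 1.44, 95% interval -0.089 to 2.96, limma adjusted p = 0.342). It passed in limma without castrated sample 4, at 1.91 (limma adjusted p = 0.0252), and in DESeq2 with all samples (adjusted p = 0.0133). C8b passed the filter through castrated samples 1 and 3 alone. Its neighbour Dab1, which encodes an adaptor of reelin signalling, was at 0.351 and 0.280 (intact), against 1.33, 1.60, 1.60 and 0.371 (castrated), with the same samples low and high. The albumin gene Alb, a hepatocyte marker, followed it too, at 0.0234 and 0.0175 (intact), against 8.75, 1.42, 5.54 and 0.0484 (castrated), while Apoa1 had 0 reads in every sample. The 12 hepatocyte markers summed to 2.86 and 3.45 in intact and 1.07 to 11.3 in castrated samples. Without Alb they summed to 2.83 and 3.43 (intact), against 2.59, 2.67, 3.69 and 1.02 (castrated), a sum that did not have the order of samples of C8b, and Ttr, another of them, was at 0.983 and 1.05 in the intact samples with 0 reads in the castrated. Cyp2e1, the only other hepatocyte marker that passed the filter, was at 0.164 and 0.560 (intact), against 1.12, 1.31, 2.76 and 0.226 (castrated). Like C8b, it was higher in castrated samples 1 to 3 than in the other samples. The part of hepatocytes in the C8b values was not tested.

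The 250 bases before the start of C8b (chr4:104766067-104766316, plus strand) and of C3 (chr17:57228137-57228386, minus strand), on the strand of each gene, are given for the same search, since both genes passed the test once castrated sample 4 was left out.
C8b: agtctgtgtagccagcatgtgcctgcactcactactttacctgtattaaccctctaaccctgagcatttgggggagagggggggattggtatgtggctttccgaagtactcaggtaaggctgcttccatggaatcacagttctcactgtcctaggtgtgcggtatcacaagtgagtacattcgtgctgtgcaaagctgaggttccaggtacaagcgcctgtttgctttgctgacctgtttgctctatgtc
C3: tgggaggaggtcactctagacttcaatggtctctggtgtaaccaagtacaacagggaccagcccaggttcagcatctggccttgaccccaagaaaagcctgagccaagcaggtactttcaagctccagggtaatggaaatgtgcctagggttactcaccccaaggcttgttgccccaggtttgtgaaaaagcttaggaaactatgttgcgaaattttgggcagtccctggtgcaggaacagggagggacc
No match to the 3 motifs was found in either. C2 and Cfb have no entry in the promoter table.

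The remaining terminal genes were weakly expressed. Hc, which encodes C5, was at 0.866 and 1.40 rescaled CPM (intact samples 1 and 2), against 0.342, 0.0539, 0.281 and 1.28 (castrated samples 1 to 4) (log2 difference -0.84, 95% interval -2.02 to 0.33, limma adjusted p = 0.478). Castrated samples 1 to 3 lay below both intact samples and castrated sample 4 lay within their range. C8g, another chain of C8, stayed between 1.07 and 2.06 with overlapping groups (limma adjusted p = 0.582). C8a had 1 read over both intact samples and 0 in each castrated sample. With 0 reads, a level of up to 3 reads is possible, which is 0.0507 to 0.0687 CPM at the depths of these samples.

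Of the classical pathway, 6 of 6 genes were tested, all 6 had a log2 difference below 0 (C1qc at 0.035 and 0.040 with CPM as deposited and quantile normalization), and 0 passed. The 3 chains of C1q, the recognition molecule made largely by macrophages, are encoded side by side on chromosome 4. C1qa (chromosome 4, 136895917 to 136898803) was at 186 and 152 rescaled CPM (intact samples 1 and 2), against 137, 136, 138 and 191 (castrated samples 1 to 4). C1qb was at 212 and 178 (intact), against 154, 140.0, 152 and 209 (castrated), and C1qc at 139 and 127 (intact), against 126, 118, 125 and 161 (castrated). In each of these genes castrated samples 1 to 3 lay close together below both intact samples, and castrated sample 4 was above them. Castrated sample 4 lay above the higher intact sample for C1qa and C1qc and just below it for C1qb. The log2 differences were -0.18 for C1qa (95% interval -0.59 to 0.24), -0.26 for C1qb (-0.69 to 0.16) and -0.013 for C1qc (-0.35 to 0.32). The ratio of C1qa to C1qb reads ranged from 0.850 to 0.971 over the 6 samples. That of C1qb to C1qc was 1.53 and 1.40 in the intact and 1.18 to 1.30 in the castrated samples, with no overlap, and that of C1qa to C1qc was 1.34 and 1.19 against 1.09 to 1.19. These ratios were not tested. The summed level of 12 macrophage markers was 1067 and 797 in intact and 852 to 1321 in castrated samples, highest in castrated sample 4. The members of this list differed, with a median log2 difference of 0.00 and 0 past the threshold. Mrc1 (log2 difference -1.35) and Mertk (-1.01) were lower in all castrated samples than in both intact samples. Tyrobp (0.76) and Cd68 (0.42) were higher in all castrated samples. In Mrc1 and Mertk, castrated sample 4 was below both intact samples. The part of macrophages in the C1q values was not tested.

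C2 and C4b encode the proteins that the C1 proteases cleave. C2 (chromosome 17, 34862604 to 34898265), whose product supplies the protease of the classical C3 convertase, was at 76.0 and 88.0 rescaled CPM (intact samples 1 and 2), against 14.3, 32.6, 18.7 and 62.0 (castrated samples 1 to 4). The group means were 82.0 ± 8.44 (SD, n = 2) against 31.9 ± 21.5 (SD, n = 4). All castrated samples lay below both intact samples, castrated samples 1 and 3 the furthest and castrated sample 4 the least. The difference had an unadjusted p of 0.0252 and did not pass after adjustment (log2 difference -1.57, 95% interval -2.88 to -0.27, limma adjusted p = 0.221). With the replicate block, which compares only samples 1 and 2 of each group, it passed (adjusted p = 0.0423). Without castrated sample 4 it passed, at -1.96 (limma adjusted p = 0.0239). C4b (chromosome 17, 34728380 to 34743882) was at 122 and 81.4 (intact), against 62.9, 63.1, 75.6 and 119.6 (castrated), with overlapping groups (log2 difference -0.36, 95% interval -1.07 to 0.35, limma adjusted p = 0.634). C4a, a close relative that may share reads with C4b, stayed at 0.862 or less. C1ra, a protease of the C1 complex, was at 45.5 and 37.6 (intact), against 33.4, 30.6, 27.6 and 48.9 (castrated) (limma adjusted p = 0.654). C1s1, its partner protease, was at 91.5 and 87.1 (intact), against 58.0, 57.5, 61.4 and 160.4 (castrated) (limma adjusted p = 0.857), and passed as lower without castrated sample 4, at -0.60 (limma adjusted p = 0.0154). For C4b, C1ra and C1s1, castrated sample 4 was above each other castrated sample, and for C1ra and C1s1 also above both intact samples. In GENCODE, 18.4% of C1s1 exon bases overlap a gene on the opposite strand.

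C3, the component on which all pathways converge, varied more between castrated samples than between the groups. C3 (chromosome 17, 57203970 to 57228136) was at 803 and 631 rescaled CPM (intact samples 1 and 2), against 203, 396, 215 and 1061 (castrated samples 1 to 4). The group means were 717 ± 121 (SD, n = 2) against 469 ± 405 (SD, n = 4). Castrated samples 1 to 3 lay below both intact samples, and castrated sample 4 was the highest of all 6. The difference did not pass (log2 difference -0.95, 95% interval -2.52 to 0.62, limma adjusted p = 0.563). Without castrated sample 4 it passed, 2.76-fold lower at -1.46 (limma adjusted p = 0.0426). Cfb (chromosome 17, 34856374 to 34862518), factor B of the alternative pathway, was at 252 and 179 rescaled CPM (intact samples 1 and 2), against 65.4, 88.8, 49.4 and 205 (castrated samples 1 to 4). The group means were 215 ± 51.4 (SD, n = 2) against 102 ± 70.5 (SD, n = 4). Castrated samples 1 to 3 were low and castrated sample 4 lay between the intact samples (log2 difference -1.27, 95% interval -2.55 to 0.0063, limma adjusted p = 0.317). Without castrated sample 4 it passed too, 3.20-fold lower at -1.68 (limma adjusted p = 0.0202). Cfb and C2 are neighbours on chromosome 17, and a GENCODE gene model on the same strand, Gm20547, covers 79.5% of the exon bases of Cfb and 42.8% of those of C2. Gm20547 is not a row of the tables used here. Cfp, which encodes properdin, the stabilizer of the alternative convertase, was at 33.1 and 21.3 (intact), against 10.6, 13.2, 14.8 and 26.1 (castrated), and did not pass with all samples (limma adjusted p = 0.362) or without castrated sample 4 (limma adjusted p = 0.0515).

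Of the 4 lectin pathway genes, Masp1 alone passed the filter. The mannose-binding lectin genes Mbl1 and Mbl2 had 0 reads in every sample, and Masp2 between 2 and 6 reads per sample. The exons of Masp2 overlap those of Tardbp on the other strand over 54.9% of their bases, and the strand setting of the counting was not given in the sources used here. Masp1 (chromosome 16, 23449417 to 23520815), a protease of the lectin pathway that also acts on the alternative pathway, was at 1.38 and 1.99 rescaled CPM (intact samples 1 and 2), against 3.37, 2.62, 3.85 and 2.74 (castrated samples 1 to 4). All castrated samples lay above both intact samples. Its difference had an unadjusted p of 0.0201 and did not pass after adjustment (log2 difference 0.74, 95% interval 0.16 to 1.32, limma adjusted p = 0.197).

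Of the regulators, 5 of 6 were tested and 0 passed. Clu (chromosome 14, 65968483 to 65981547) encodes clusterin, a secreted chaperone that binds terminal complement complexes and is known in prostate for its increase after androgen withdrawal. It was at 5099 and 7103 rescaled CPM (intact samples 1 and 2), against 9859, 9826, 10295 and 6892 (castrated samples 1 to 4). The group means were 6101 ± 1417 (SD, n = 2) against 9218 ± 1566 (SD, n = 4). Castrated samples 1 to 3 lay above both intact samples, and castrated sample 4 lay between the intact samples. The difference did not pass (log2 difference 0.60, 95% interval -0.13 to 1.33, limma adjusted p = 0.41), also without castrated sample 4 (limma adjusted p = 0.109). Cd55 (chromosome 1, 130439027 to 130462744), decay-accelerating factor, dissociates the C3 convertases on host cells. It was at 47.0 and 65.2 rescaled CPM (intact samples 1 and 2), against 147, 89.6, 119 and 61.2 (castrated samples 1 to 4). The group means were 56.1 ± 12.8 (SD, n = 2) against 104 ± 37.0 (SD, n = 4). The pattern over samples was that of Clu, castrated samples 1 to 3 above both intact samples and castrated sample 4 between them. Its unadjusted p was 0.0482 and it did not pass after adjustment (log2 difference 0.83, 95% interval 0.0086 to 1.66, limma adjusted p = 0.308), nor without castrated sample 4, at 1.06 (limma adjusted p = 0.0501). Cd55b, a close paralog, may share reads with Cd55. Opposite-strand exons overlap 2.10% of the bases of Cd55.

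Cfi, the protease that inactivates C3b and C4b, was at 19.8 and 24.0 (intact), against 19.7, 17.3, 24.8 and 8.54 (castrated), lowest in castrated sample 4 (limma adjusted p = 0.695). Cd59a, which blocks C9 insertion, was at 3.09 and 3.36 (intact), against 2.81, 3.91, 3.02 and 1.502 (castrated), and again castrated sample 4 was lowest (limma adjusted p = 0.812). Vtn, encoding vitronectin, which binds the forming attack complex, stayed between 0.269 and 1.14 (limma adjusted p = 0.696). Cd46, a cofactor of Cfi that mice express mainly in testis, was below the filter at 0.387 to 0.723 in the 6 samples. Its exons overlap opposite-strand exons over 14.2% of their bases. Per kilobase of exon, Cd55 averaged 11.6 rescaled CPM in intact and 21.5 in castrated samples, against 1.78 and 1.55 for Cd59a.

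All 5 receptor genes were tested and 0 passed. Itgam and Itgb2 encode the 2 chains of complement receptor 3, an integrin of neutrophils and macrophages. Itgam (chromosome 7, 128062640 to 128118491) was at 29.7 and 21.6 rescaled CPM (intact samples 1 and 2), against 32.5, 40.1, 60.3 and 63.1 (castrated samples 1 to 4). The group means were 25.6 ± 5.75 (SD, n = 2) against 49.0 ± 15.05 (SD, n = 4). All castrated samples lay above both intact samples, castrated samples 3 and 4 the furthest. Its unadjusted p was 0.023 and it did not pass after adjustment in limma (log2 difference 0.89, 95% interval 0.17 to 1.61, limma adjusted p = 0.211), while DESeq2 called it higher (adjusted p = 0.0414). A GENCODE gene model on the same strand, Gm49368, which is not a row of the tables used here, covers 68.7% of the exon bases of Itgam. Itgb2 was at 40.1 and 29.2 (intact), against 36.0, 40.1, 43.6 and 61.2 (castrated), with overlapping groups (log2 difference 0.37, 95% interval -0.19 to 0.93, limma adjusted p = 0.527). The ratio of Itgam to Itgb2 reads was 0.740 in each intact sample and 0.902, 1.00, 1.38 and 1.03 in castrated samples 1 to 4. Of 11 neutrophil markers found, 7 were tested and 4 passed, all higher in castrated samples, among them S100a9 at 26.7 and 11.9 (intact), against 94.8, 84.9, 125 and 101 (castrated) (limma adjusted p = 0.0202). The granule genes Elane, with 0 reads, and Mpo, at 0.0807 or less, are on the list too. The list summed to 3514 and 3246 in intact and 986 to 3209.9 in castrated samples, most of it from the lactoferrin gene Ltf. Without Ltf, it summed to 68.6 and 30.2 in intact and 202 to 354 in the castrated samples. Their part in the Itgam values was not tested.

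The anaphylatoxin receptor genes did not pass the test, and their groups overlapped. C3ar1 was at 28.1 and 18.5 (intact), against 17.6, 18.4, 16.0 and 33.8 (castrated) (limma adjusted p = 0.885), and C5ar1 at 11.3 and 7.35 (intact), against 9.77, 10.2, 12.6 and 17.6 (castrated) (limma adjusted p = 0.572). Castrated sample 4 was the highest of all samples in both. Cr2, the receptor of C3d on B cells and follicular dendritic cells, was at 2.58 and 0.0874 (intact), against 1.77, 2.98, 0.281 and 0.113 (castrated) (limma adjusted p = 0.99). Its values differed between samples of 1 group more than between groups, with intact sample 1 and castrated samples 1 and 2 high and the other 3 low. Of the B cell list, which summed to 143 and 203 in intact and 107 to 223 in castrated samples, the plasma cell gene Jchain made up the largest share. Without Jchain it summed to 60.1 and 11.9 (intact), against 23.5, 41.2, 18.0 and 14.5 (castrated). Its member Ms4a1 was at 8.17 and 0.192 (intact), against 2.38, 4.72, 1.34 and 1.05 (castrated). Intact sample 1 and castrated samples 1 and 2 were the highest in Cr2, in Ms4a1 and in the sum without Jchain, but not in the whole sum, and the part of B cells in the Cr2 values was not tested.

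**Figure D3:**
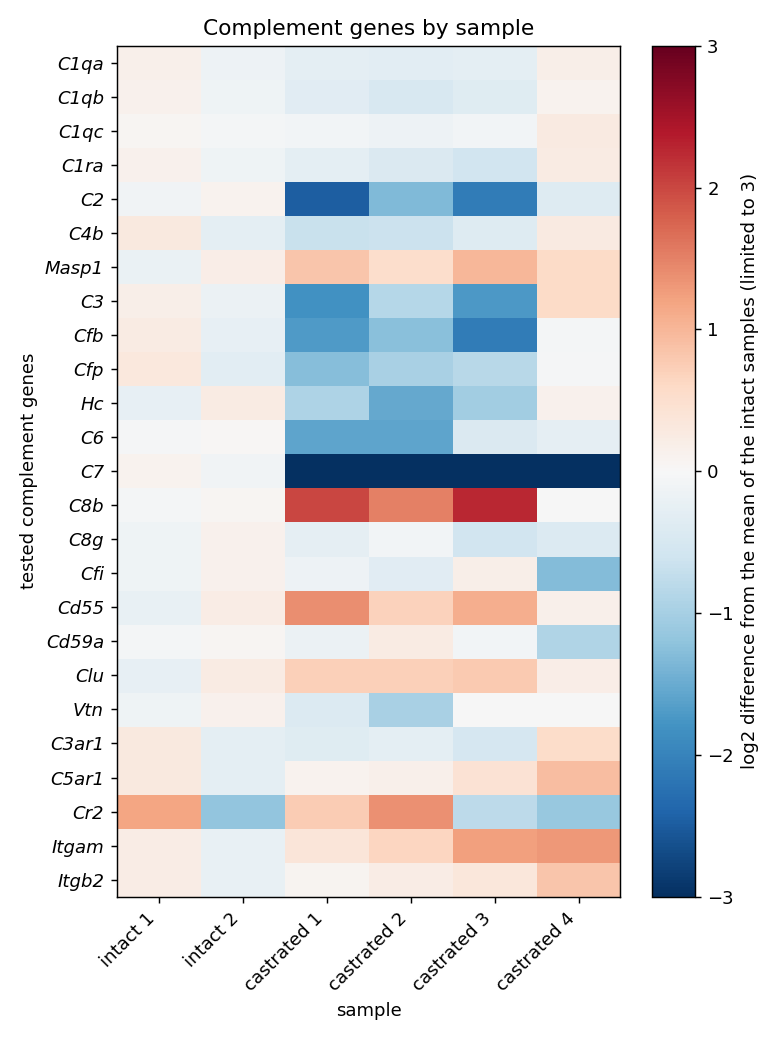
Difference of each sample from the mean of the intact samples, on the log2(rescaled CPM + 0.5) scale, for the 25 tested genes (rows) and 6 samples (columns), with the colour limited at 3 either way. Castrated samples 1 to 3 share low C3, Cfb and Cfp and high C8b, Cd55 and Clu, where castrated sample 4 lies closer to the intact mean or on its other side, while C7 and C2 are below both intact samples in all 4.

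Castrated sample 4 differed from the other castrated samples in most of these genes. It lay above each of the 3 others in 16 of the 25 tested genes and below each in 6, where 35.4% and 38.6% of all tested genes did so. The 16 comprised all 6 tested genes of the classical pathway, all 3 of C3 and the alternative pathway, 4 of the 5 receptors, Hc, C6 and Vtn. The 6 comprised the 4 regulators Cfi, Cd55, Cd59a and Clu, with C8b and Cr2. For C3, the log2 level in castrated sample 4 was 2.04 above the mean of the others, for Cfb 1.63 and for C2 1.57. Without it, 4 of 24 tested genes were lower (C7, C2, C3 and Cfb) and 1 higher (C8b), beside 4.25% and 3.38% of all genes tested in that fit. Hc was then below the filter. At an unadjusted p under 0.05, 10 were lower and 5 higher in that fit, beside 13.0% and 11.7% of all genes. Summed marker levels of castrated sample 4 lay outside the range of the other castrated samples for macrophages, fibroblasts, endothelium and luminal epithelium. They lay inside it for basal epithelium, smooth muscle, neutrophils and B cells. The hepatocyte, red blood cell and seminal vesicle sums, all at low levels, also lay outside it. The summed rescaled CPM was, for the 12 macrophage genes, 1321 in castrated sample 4, 852 to 952 in castrated samples 1 to 3. For 10 fibroblast genes it was 2005 in castrated sample 4, 858 to 1445 in castrated samples 1 to 3, for 6 endothelial genes 112 in castrated sample 4, 66.0 to 68.3 in castrated samples 1 to 3, for 6 basal epithelial genes 2893 in castrated sample 4, 751 to 3665 in castrated samples 1 to 3, and for 8 luminal epithelial genes 5146 in castrated sample 4, 6209 to 8275 in castrated samples 1 to 3. Within the fibroblast list, Dcn, Col3a1, Pdgfra, Fbln1 and Mfap5 of castrated sample 4 lay above the other castrated samples. Col1a1, Col1a2, Col6a3, Lum and Dpt lay inside their range. The part of any of these cell types in the values of castrated sample 4 was not tested.

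**Figure D4:**
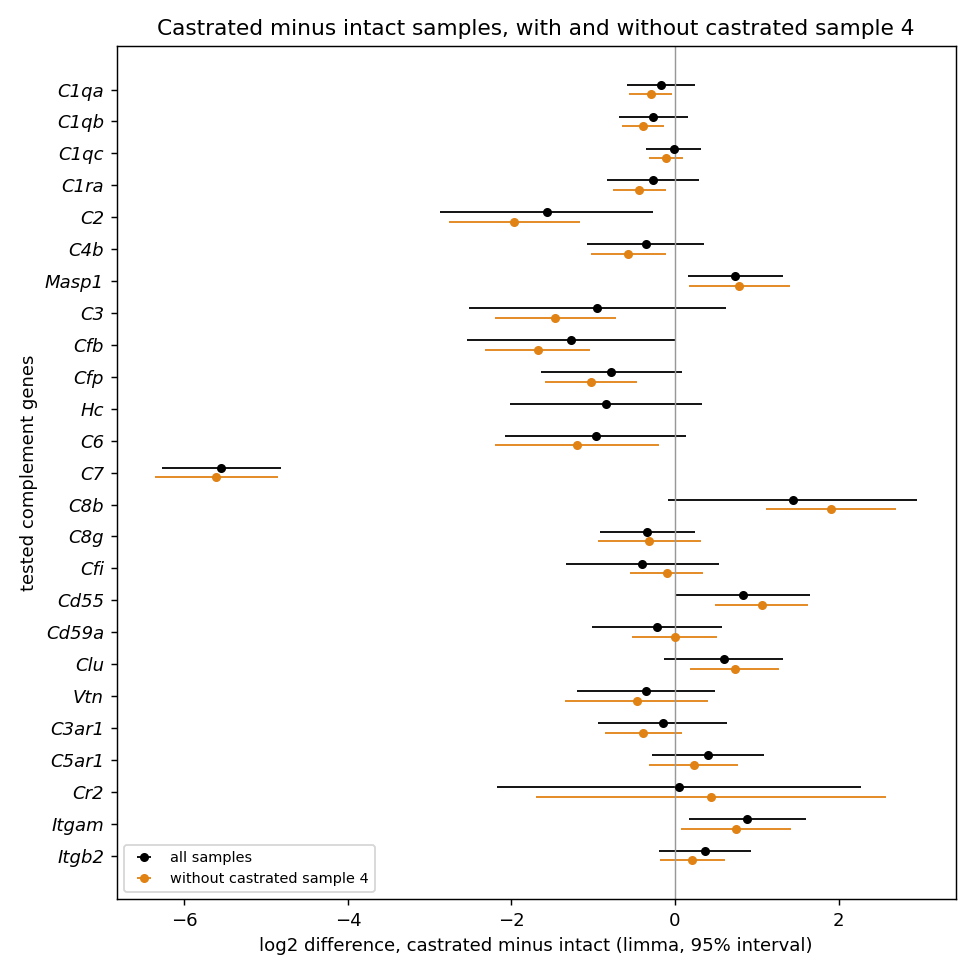
Log2 difference of castrated minus intact samples with its 95% interval from limma for the 25 tested genes, with all samples (black) and without castrated sample 4 (orange). C7 lies at -5.55 and -5.61, while the intervals of C3 and Cfb include 0 with all samples and lie below 0 without castrated sample 4.

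Groups that did not overlap were found for 3 genes lower in castrated samples (C2, C6 and C7) and 2 higher (Masp1 and Itgam), beside 13.2% and 13.4% of all tested genes. Markers of the labelled tissue were present: the luminal markers summed to 7656 and 7389 in intact and 5146 to 8275 in castrated samples. Seminal vesicle markers summed to 0.161 or less in each sample, with 5 of 8 at 0. Of 12 hepatocyte markers, 2 passed the filter. Of 10 B cell markers 9 were tested and of 6 smooth muscle markers 6, and 0 passed in either list.

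Other genes of the complement system, 35 listed, were found in 34 cases and tested in 15. Of the 15, 0 passed in limma in either direction, beside 1.27% lower and 0.698% higher of all tested genes. At an unadjusted limma p under 0.05, 2 were lower and 0 higher, beside 8.06% and 7.84% of all tested genes. Their median log2 difference was 0.11. Serping1 (chromosome 2, 84765387 to 84775444), the C1 inhibitor, was at 211 and 213 rescaled CPM (intact samples 1 and 2), against 107, 100.1, 108 and 177 (castrated samples 1 to 4). All castrated samples lay below both intact samples, castrated sample 4 the nearest. The log2 difference was -0.83 with an unadjusted p of 0.0105 (limma adjusted p = 0.146), and -1.02 (limma adjusted p = 0.00371) without castrated sample 4. With all samples it was lower past the threshold with array weights (adjusted p = 0.0166) and in DESeq2 (adjusted p = 0.0358). These fits called 3.84% and 4.54% of all tested genes lower. DESeq2 also called Cd55b higher, beside 4.76% of all tested genes. Cd55b was at 0.0936 and 0.105 (intact), against 3.40, 0.305, 1.65 and 0.258 (castrated) (limma adjusted p = 0.433). Serping1 was also lower with the replicate number as a block (adjusted p = 0.0258), a fit that compares only samples 1 and 2 of each group. Thbd, encoding thrombomodulin, was at 21.8 and 24.4 (intact), against 10.2, 11.7, 10.8 and 25.4 (castrated), with castrated samples 1 to 3 low and castrated sample 4 highest. It and Serping1 were the 2 of the 15 that passed without castrated sample 4, Thbd at -1.05 (limma adjusted p = 0.0113). Both were lower, beside 4.25% of all genes tested in that fit. Fcna, a ficolin that starts the lectin pathway and is made by macrophages of some tissues, was at 5.01 and 5.79 (intact), against 0.551, 1.02, 3.39 and 1.94 (castrated) (log2 difference -1.58, limma adjusted p = 0.194). With the replicate block, which leaves castrated samples 3 and 4 out of the comparison, it passed (adjusted p = 0.0471). Cfd, encoding factor D, an adipocyte product, ranged from 0 reads in intact sample 1 to 39.7 rescaled CPM in castrated sample 3 (limma adjusted p = 0.58).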

How the data were processed

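RNA was measured in 2 intact and 4 castrated prostate samples. The authors deposited 1 table of CPM (counts per 1000000 reads counted in genes) per sample. TopHat2, HTSeq, edgeR and the build mm10 (GRCm38) are named, per the submitters' processing notes, with no versions. Library preparation followed standard Illumina protocols, per the labels' protocols, and the strand setting of the counting was not stated there. Divided by a column's smallest nonzero value, 100% of values were whole numbers (tolerance 1e-06), which gave back the read counts. Depth was 43679297 to 59170793 reads, and floors and intervals from reads cover counting error only.

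CPM were rescaled by size factors from the median of ratios (0.978 to 1.05). Genes reaching 1 CPM in 2 or more samples were tested with limma (version 3.58.1, R 4.3.3, mean-variance trend) on log2(rescaled CPM + 0.5). P-values are two-sided and Benjamini-Hochberg adjusted over all 13898 tested genes. Alternatives were DESeq2 (version 1.42.0) and the quasi-likelihood test of edgeR (version 4.0.16) on recovered reads, other pseudocounts, filters, scalings and moderation, sample weights, single samples left out and a replicate block. The steps were tested on simulated counts. Members and lists were chosen with earlier results of these data known. Sample values are given for genes past the threshold, at an unadjusted p under 0.05 or among the 10 highest, and others were named after their values were seen. The name and level of the deleted gene, and values of some other genes, are not reported here. Positions and exon lengths are from GENCODE M21 (GRCm38).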

Additional observations from a re-analysis of the deposited data

Results flagged for a closer look

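In the castrated group, 2 of the 25 tested genes had 1 sample far from the other 3, both castrated sample 4, by a gap above Dixon's critical share of the group's log2 range. C1qa was at 191 rescaled CPM there and at 136 to 138 in the others, and Clu was at 6892 there and at 9826 to 10295 in the others. Chance flags about 1 in 20 groups. The share of all tested genes flagged by this rule was not determined, so the 2 are not read as particular to complement genes.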

How the results depend on the processing

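The fall of C7 kept its direction in all 20 fits in which C7 was tested, with log2 differences of -6.88 to -4.85. It kept its call in those with both intact samples, with adjusted p up to 0.0152. C7 passed each filter through the intact samples alone, so its direction was fixed in every fit with a filter. With no filter, the log2 difference was -5.55 (limma adjusted p = 0.00295). All fits share these samples. Without intact sample 1 or 2, C7 was below the filter. A filter of 1 CPM in 1 sample, added after seeing the data, returned it (log2 difference -5.46 and -5.66). Complement genes lower in castrated samples numbered 1 with all samples, 0 to 4 with 1 sample left out, the most without castrated sample 4 and 0 without intact sample 1 or 2. Genes higher numbered 0, 0 to 1 with 1 sample left out and 2 in DESeq2 (C8b and Itgam). Over all genes, 274 passed, 170 with no filter, 954 with array weights, 1293 in DESeq2, and 1 to 1052 with 1 sample left out, lowest without intact sample 2 and highest without castrated sample 4 (103 and 18 without intact samples 1 and 2 in turn, with the added filter). Replicate numbers are shared by the groups, but the labels do not say that they pair samples: deviations of same-numbered samples correlated at 0.075 and 0.23. With the replicate block, 417 genes passed, 2 of them among the 25 tested members (C7 and C2, both lower). Of the other complement genes, Serping1 and Fcna were lower. No intact sample has replicate number 3 or 4, so this fit compares only samples 1 and 2 of each group. Signs near 0 turned for C1qc (0.035 as deposited, 0.040 with quantile normalization, -0.11 to 0.046 with 1 sample left out), Cr2 (-0.043 with quantile normalization, -0.041 in edgeR, -0.045 in DESeq2, -1.14 to 1.25 with 1 sample left out), C3ar1 (-0.45 to 0.14 with 1 sample left out) and Cd59a (0.00074 with array weights, 0.039 with the replicate block). The causes were not tested. Genes at or below a few reads (Mbl1, Mbl2, C8a, C9 and Masp2) could not be compared at this depth.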
